A study of Mus musculus with 2040 samples.

Results

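The 7 genes described here are Gdf10, Ctxn3, A2m, Hopx, Timp4, Sept4 and Tnc. They were picked from the 32245 gene columns of a table of single brain cells because they were high in astrocytes of CBX (cerebellar cortex), so their CBX levels are given as a description, with no test. Single cells that carried the yellow fluorescent protein SYFP2 were sorted from brains of C57Bl/6J mice, the strain of every mouse in the series, and profiled one by one with SMARTerv4 full-length cDNA chemistry. Each of the 47 mice had received 1 of 30 enhancer-AAV or promoter-AAV vectors, viruses whose reporter is driven by the named regulatory element. Each vector was confined to 1 tissue, so tissue and vector cannot be told apart. The labels used here give neither age nor a mouse without vector, and only cells in which the vector was active were sorted.

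CBX contributed 81 cells from 2 mice, MouseID-614198 and MouseID-651221, that had both received the vector eHGT_375m. MB/HB (midbrain and hindbrain) contributed 174 cells from 4 mice, MouseID-615516 and MouseID-651222 with eHGT_381h and MouseID-651228 and MouseID-651229 with MGT_E160m. VISp (primary visual cortex) contributed 1785 cells from 41 mice and 27 vectors. Astrocyte-like cells, called from clusters made without the 7 genes, were all 81 CBX cells, 148 MB/HB cells and 739 VISp cells. The VISp astrocyte-like cells came from 19 mice with the vectors eHGT_390m, eHGT_390h, eHGT_387m, eHGT_376h, eHGT_380h, eHGT_374m, eHGT_385m, eHGT_373m, eHGT_386m, ProB12, GFAP_promoter and 3xCore2(390m). All 12 astrocyte markers, among them Aqp4, Gja1 and Slc1a2, were detected in most astrocyte-like cells of each tissue. The same markers named the clusters. Their summed level per cell went down to 2083 CPM in CBX, 2.80 in MB/HB and 1293 in VISp. In MB/HB the highest cell reached 37950 CPM of endothelial, 39782 of mural and 28968 of oligodendrocyte markers. The MB/HB set thus holds some cells with little astrocyte or much other marker RNA. Median depth was 375425 reads per cell in CBX, 410437 in MB/HB and 431572 in VISp. Cells with markers of another class were 9 of 81 in CBX (11.1%), 15 of 148 in MB/HB (10.1%) and 27 of 739 in VISp (3.65%).

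Astrocytes take up glutamate, supply neurons and contact vessels, and their gene expression differs between brain regions. The cerebellar cortex holds a specialised astrocyte, the Bergmann glial cell, whose fibres cross the molecular layer and enwrap the synapses of Purkinje neurons. Gdf10 and Hopx are in common use as markers of these cells. By role, Gdf10 is a secreted ligand of the TGF-beta family, A2m and Timp4 are secreted protease inhibitors and Tnc is a glycoprotein of the extracellular matrix. Hopx is a small nuclear homeodomain-only protein that does not bind DNA itself, Sept4 is a GTP-binding septin of the cytoskeleton, and Ctxn3 is a small membrane protein of the cortexin family.

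The promoters of Gdf10, Hopx and Timp4 are shown because these genes differed between the astrocyte-like cells of MB/HB and VISp and had an entry among the RefSeq promoters of GRCm38.p6, the mm10 build. Each sequence is the 250 bases before an annotated start, on the strand of the gene: chr14:33923337-33923586 on the plus strand for Gdf10, chr5:77115124-77115373 on the minus strand for 1 of the 2 starts of Hopx, and chr6:115252206-115252455 on the minus strand for Timp4. Capitals mark matches to any of 3 motifs, searched on both strands. TATAAA is the basal promoter element upstream of many starts, GGGCGG is the GC box bound by Sp1, and TTGGC is a core of the sites of nuclear factor I proteins.
Gdf10: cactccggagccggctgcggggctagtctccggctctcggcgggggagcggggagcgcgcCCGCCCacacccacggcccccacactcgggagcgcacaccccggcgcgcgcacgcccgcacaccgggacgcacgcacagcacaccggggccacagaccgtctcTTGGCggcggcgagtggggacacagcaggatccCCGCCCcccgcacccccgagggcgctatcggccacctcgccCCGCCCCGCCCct
Hopx: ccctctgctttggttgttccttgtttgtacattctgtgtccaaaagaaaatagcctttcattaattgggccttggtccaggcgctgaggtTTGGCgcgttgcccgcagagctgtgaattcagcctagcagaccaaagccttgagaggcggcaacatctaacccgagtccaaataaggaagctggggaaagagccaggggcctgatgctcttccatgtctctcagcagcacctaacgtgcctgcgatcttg
Timp4: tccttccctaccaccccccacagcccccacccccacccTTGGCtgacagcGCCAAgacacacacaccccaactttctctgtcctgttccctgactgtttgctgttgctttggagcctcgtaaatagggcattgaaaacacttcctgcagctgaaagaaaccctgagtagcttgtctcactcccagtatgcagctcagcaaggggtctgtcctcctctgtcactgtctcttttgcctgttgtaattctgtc
The Gdf10 promoter held 4 GC boxes, starting 190, 54, 13 and 8 bases before the start, of which the last 2 overlap by 1 base, and 1 nuclear factor I core 87 bases before it. It had 78.8% G or C and 35 CpG, against medians of 52.4% and 6 over all 32851 promoters of the same length. The Hopx promoter shown held 1 nuclear factor I core 160 bases before the start and no GC box, with 52.4% G or C and 8 CpG. The Timp4 promoter held 2 such cores, 212 and 200 bases before the start, with 53.6% G or C and 2 CpG. None of the 3 promoters shown held TATAAA. Of all promoters, 12.4% held TATAAA, 32.7% held GGGCGG and 41.5% held TTGGC. Over the 5 members with an entry, TTGGC was found before at least 1 start of each and before 6 of their 10 starts. A match is a run of letters and was not tested as a site.

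In CBX, the ligand Gdf10 had a mean of 2255 CPM (reads of a gene, scaled to 1000000 reads per cell) over the 43 cells of MouseID-614198 and 1972 CPM over the 38 cells of MouseID-651221. A2m reached 741 and 666 CPM in these 2 mice, Timp4 4667 and 5180, and Tnc 103 and 111. Hopx reached 3091 and 2977 CPM, Sept4 6510 and 7767, and Ctxn3 817 and 774. The 2 mice lay close together for every member: the SD of log2(mean CPM + 1) over them was between 0.038 for Hopx and 0.18 for Sept4. For all 7 members both CBX mice lay above each of the 23 other mice with at least 10 astrocyte-like cells. Of all genes tested, 5.14% showed such a gap (230 of 4471), and since the members were chosen on these values nothing is read from their count.

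In MB/HB, Gdf10 had a mean of 452 CPM in MouseID-615516 and was listed at 0 in MouseID-651222, MouseID-651228 and MouseID-651229. Ctxn3 followed the same split, with 118 CPM in MouseID-615516 and 0 in the others, and so did Tnc, with 42.3 CPM and 0. For these 3 genes the tissue mean therefore rests on 1 mouse. A2m was at 170.3, 36.1, 12.9 and 30.6 CPM in the 4 mice in the same order. Hopx was at 552, 74.0, 63.4 and 66.1 CPM, and Sept4 at 1031, 126, 107 and 203 CPM. MouseID-615516 was thus also the highest for A2m, Hopx and Sept4, while Timp4, at 1471, 1463, 1061 and 899 CPM, was nearly as high in MouseID-651222.

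In VISp, Gdf10 ranged over the 19 mice from 14.3 CPM through a median of 58.1 to 249.9, so that every mouse had some. A2m was low, from 0 to 18.9 CPM with a median of 4.59 and 5 mice at 0. Timp4 ranged from 427 to 769 CPM with a median of 591. The MB/HB mice, at 899 CPM or more, all lay above this range, and Timp4 was the only member for which MB/HB and VISp mice did not overlap. The share of all genes with such a gap was not counted, so nothing is read from the count of members. Tnc had a median of 0 and a maximum of 14.1 CPM, with 11 mice at 0. Hopx ranged from 206 to 549 CPM with a median of 445, above 3 of the 4 MB/HB mice. Sept4 ranged from 80.4 to 551 CPM with a median of 204, and its MB/HB and VISp mice overlapped. Ctxn3 was listed at 0 in 18 of 19 mice and at 0.426 CPM in the other.

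**Figure D1:**
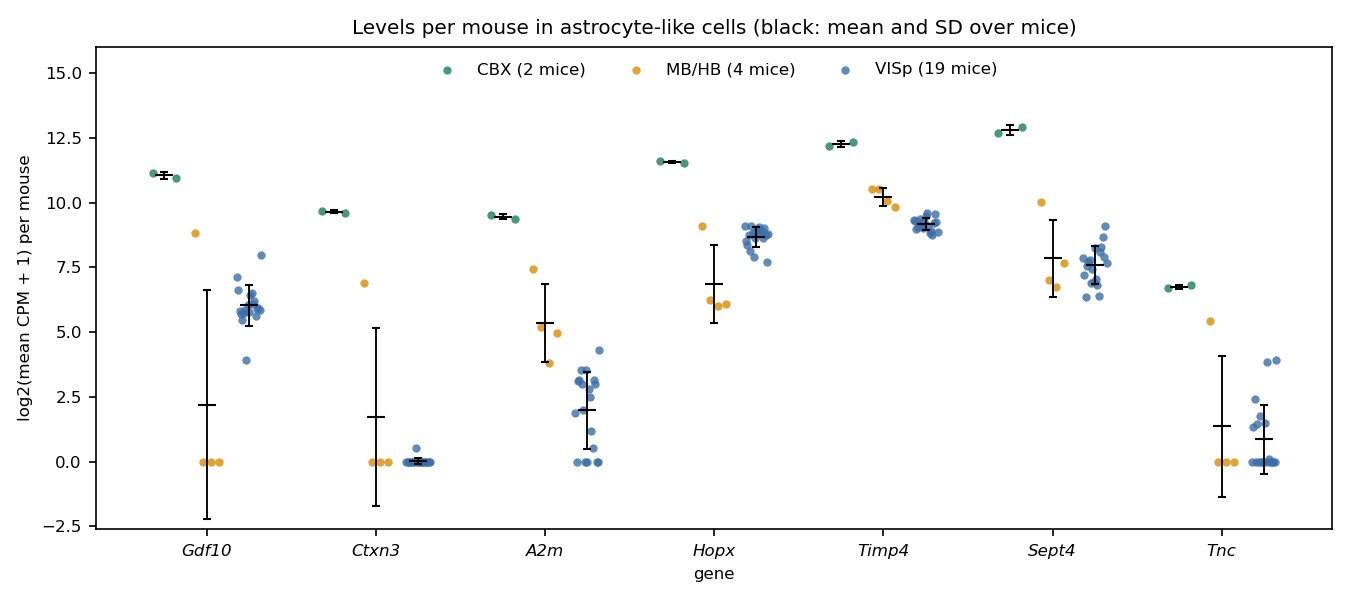
Levels of the 7 genes on the log2(mean CPM + 1) scale, 1 point per mouse over its astrocyte-like cells, for CBX (2 mice), MB/HB (4 mice) and VISp (19 mice); black marks are the mean and SD over mice. The CBX mice lie above all others for each gene, and in MB/HB 1 mouse, at 8.82 for Gdf10 and 6.90 for Ctxn3, stands above 3 mice at 0.

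By mean level per mouse, the order of the tissues differed between members. On the log2(mean CPM + 1) scale, Hopx was at 11.57 ± 0.04 in CBX (SD, n = 2), 8.67 ± 0.40 in VISp (SD, n = 19) and 6.85 ± 1.51 in MB/HB (SD, n = 4). Gdf10 had the same order on this scale, at 11.04 ± 0.14 in CBX, 6.03 ± 0.78 in VISp and 2.21 ± 4.41 in MB/HB. Its gap between VISp and MB/HB was smaller than the SD of MB/HB, where 3 mice were at 0. In plain CPM the mean over mice was higher in MB/HB (113) than in VISp (74.4), and MouseID-615516 lay above every VISp mouse. Timp4 had the opposite order for the last 2 tissues, at 12.26 ± 0.11 in CBX, 10.23 ± 0.35 in MB/HB and 9.17 ± 0.24 in VISp. A2m was ordered like Timp4, at 9.46 ± 0.11, 5.35 ± 1.51 and 1.98 ± 1.48. For Sept4 the values were 12.80 ± 0.18, 7.86 ± 1.49 and 7.57 ± 0.74, and MB/HB and VISp did not differ beyond their spread. The same held for Tnc, at 6.76 ± 0.08, 1.36 ± 2.72 and 0.86 ± 1.31, and for Ctxn3, at 9.64 ± 0.05, 1.72 ± 3.45 and 0.03 ± 0.12.

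The difference between MB/HB and VISp does not use the CBX levels by which the members were picked and could be tested. The 2 CBX mice did enter the pooled spread and the filter that kept genes of at least 1 CPM in 2 or more mice. Ctxn3 reached 1 CPM outside CBX only in MouseID-615516, so it passed that filter through the CBX mice and its test is not free of them. Of the 7 members, on the log2(mean CPM + 1) scale, Timp4 and A2m were higher in MB/HB and Gdf10 and Hopx were lower. Ctxn3, Sept4 and Tnc did not pass the test. With limma over 4471 genes and 25 mice at a Benjamini-Hochberg adjusted p of 0.05, 5.75% of all genes were called higher in MB/HB and 6.64% lower. Timp4 was higher by 1.06 (SE 0.14) on the log2(mean CPM + 1) scale, with a limma adjusted p of 2.0e-06. A2m was higher by 3.37 (SE 0.77) with a limma adjusted p of 0.00226. Hopx differed by -1.82 (SE 0.32) with a limma adjusted p of 1.3e-04, and Gdf10 by -3.82 (SE 0.85) with a limma adjusted p of 0.0018. These SE come from a spread pooled over the 25 mice, most of them of VISp. The SD over MB/HB mice was 1.51 for Hopx and 4.41 for Gdf10, against 0.40 and 0.78 in VISp. The SE and p of Hopx and Gdf10 therefore do not measure the MB/HB spread. The differences of the other members were 1.70 (SE 0.65) for Ctxn3, 0.28 (SE 0.42) for Sept4 and 0.50 (SE 0.79) for Tnc, with limma adjusted p of 0.092, 0.73 and 0.75. With a pseudocount of 0.1 in place of 1 CPM the Gdf10 difference was -6.29 (adjusted p 2.4e-04). The members went both ways, with a median difference of 0.50 against -0.05 over all genes tested, and the members' median turned to -0.62 without 6 cells of 1 mouse, described next.

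The Gdf10 reads of MB/HB came from only 6 cells of MouseID-615516, which also fell into the cluster of the CBX cells. Without these 6 cells Gdf10, Ctxn3 and Tnc were at 0 in all 4 MB/HB mice, and the mean of MouseID-615516 became 6.97 CPM for A2m, 57.4 for Hopx, 866 for Timp4 and 83.5 for Sept4. A2m, Hopx and Timp4 passed the limma test in the same directions as with them, where 5.84% of all genes were called higher and 7.49% lower. Hopx then differed by -2.63 (adjusted p 5.4e-12), Timp4 by 0.87 (adjusted p 4.4e-05) and A2m by 2.27 (adjusted p 0.040). For Gdf10 no test is read, since the 6 cells were all the MB/HB astrocyte-like cells with a read of it. Ctxn3, Sept4 and Tnc changed sign, to -0.03, -0.62 and -0.86, and none passed the test. Leaving out MouseID-615516 whole also put Gdf10 at 0 in MB/HB, and gave the same signs as without the 6 cells for Ctxn3, Sept4 and Tnc.

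The share of cells with at least 1 read was set beside the mean level. Gdf10 was read in 79 of 81 CBX cells (97.5%, exact 95% interval 91.4 to 99.7), in 6 of 148 MB/HB cells (4.05%, 1.5 to 8.62) and in 236 of 739 VISp cells (31.9%, 28.6 to 35.4). Ctxn3 was read in 79 CBX cells, in 6 MB/HB cells and in 1 VISp cell (0.135%). VISp astrocyte-like cells thus often held Gdf10 and next to never Ctxn3. A2m was read in 76 CBX cells (93.8%), 19 MB/HB cells (12.8%) and 25 VISp cells (3.38%). Tnc was read in 57 CBX cells (70.4%), 5 MB/HB cells (3.38%) and 16 VISp cells (2.17%). Both were therefore absent from the reads of most astrocyte-like cells outside CBX.

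Hopx was read in 80 of 81 CBX cells (98.8%), in 58 MB/HB cells (39.2%) and in 669 VISp cells (90.5%). With each cell thinned to 50000 reads these shares were 98.8%, 31.1% and 89.0%. The lower Hopx mean of MB/HB went with fewer cells that held a read. Sept4 was read in all 81 CBX cells, 61 MB/HB cells (41.2%) and 419 VISp cells (56.7%). Timp4 was read in all 81 CBX cells, 138 MB/HB cells (93.2%) and 684 VISp cells (92.6%). Of the members, only Timp4 had a read in over 90% of the cells of each tissue, and its median per cell was 4896 CPM in CBX, 997 in MB/HB and 532 in VISp.

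The other classes of VISp were read for comparison. The 963 oligodendrocyte-like cells, at a median depth of 442501 reads, held Gdf10 in 1.04%, Ctxn3 in 1.66%, A2m in 0.208%, Hopx in 22.1%, Timp4 in 7.27% and Tnc in 0.208%. The 83 neuron-like cells, at a median depth of 430369 reads, held Gdf10 in 28.9%, Ctxn3 in 8.43%, A2m in 3.61% (0.752 to 10.2), Hopx in 71.1%, Timp4 in 28.9% and Tnc in 1.20% (0.0305 to 6.53). The A2m and Tnc shares of VISp astrocyte-like cells, with intervals of 2.20 to 4.95% and 1.24 to 3.49%, lay above those of oligodendrocyte-like cells (0.0252 to 0.748% for each gene) and within the intervals of neuron-like cells. They were therefore not separated from the level in every other class, and the Ctxn3 share of VISp astrocyte-like cells was below both. In thinned cells the Tnc shares were 63.0% in CBX, 3.38% in MB/HB and 1.62% in VISp.

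**Figure D2:**
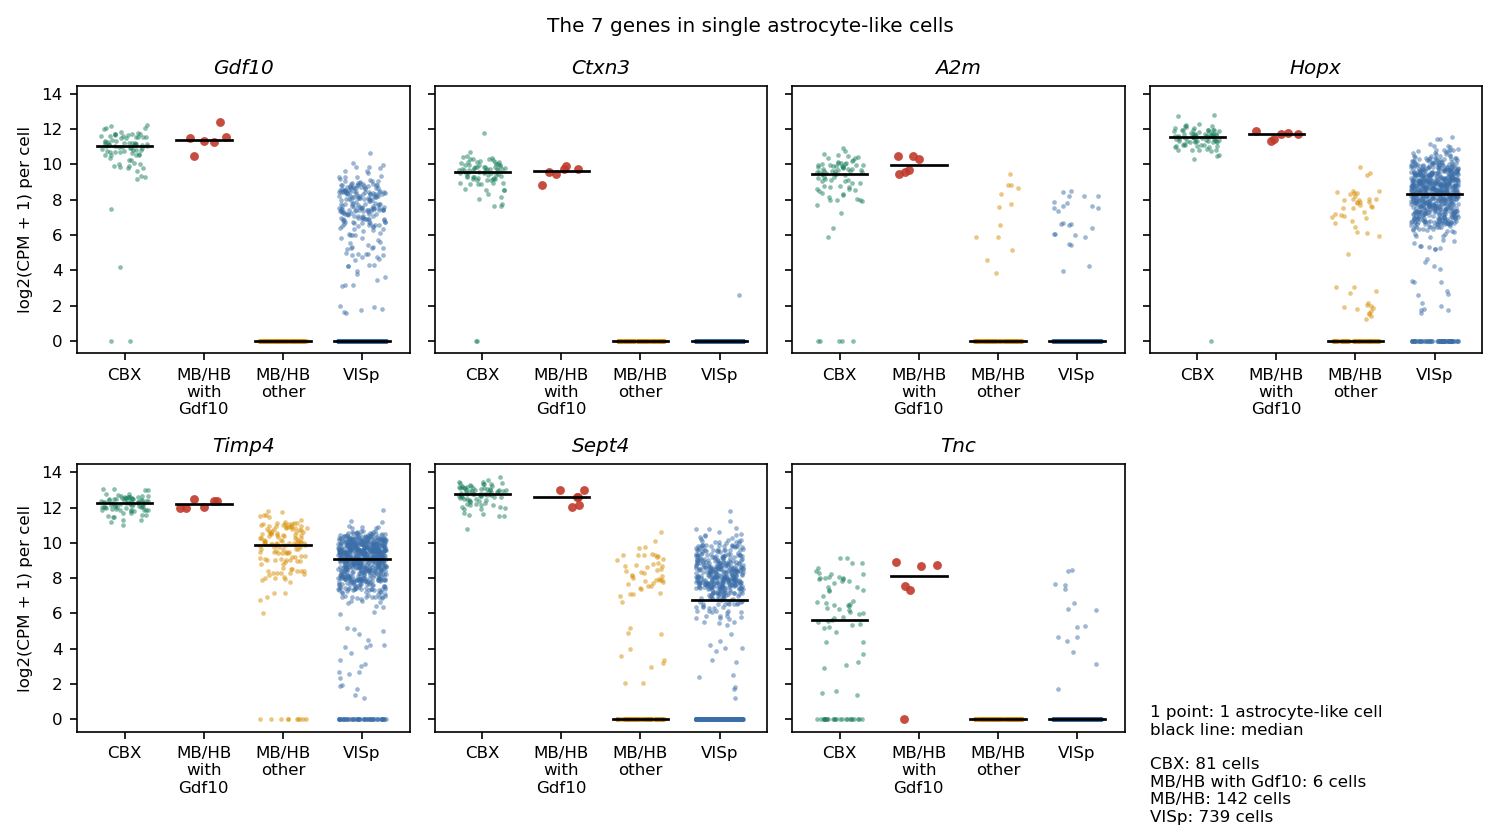
Level of each gene in single astrocyte-like cells as log2(CPM + 1), 1 point per cell with the median as a line, for 81 CBX cells, the 6 MB/HB cells with Gdf10 (larger red points), the 142 other MB/HB cells and 739 VISp cells. The 6 MB/HB cells lie in the range of the CBX cells for every gene except for 1 cell above it for Gdf10, and the other MB/HB cells hold no Gdf10, Ctxn3 or Tnc.

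Within CBX, most cells held most of the members. They were picked as high in CBX astrocytes, and every member but Tnc was read in at least 93.8% of the CBX cells. The counts per cell below and their contrast with the other tissues follow from this, and nothing is read from them. At least 6 of the 7 had a read in 77 of 81 cells (95.1%) and all 7 in 54 cells (66.7%), with 41 of 43 cells of MouseID-614198 and 36 of 38 cells of MouseID-651221 at 6 or more. In the cells with 6, the missing member was Tnc, or less often A2m. In VISp the median astrocyte-like cell held a read of 3 members, 1 of 739 cells held 6 and none held all 7. In MB/HB the median cell held 2, and 140 of 148 cells held at most 3. A single VISp neuron-like cell, of 83, held reads of all 7.

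Levels varied unequally over the 81 CBX cells. The coefficient of variation of CPM was 0.285 for Timp4, 0.336 for Sept4 and 0.361 for Hopx, then 0.501 for Gdf10, 0.560 for Ctxn3, 0.596 for A2m and 1.29 for Tnc. The matrix gene Tnc was thus the most uneven, with 24 CBX cells without a read. Gdf10 itself spanned 1456 to 2863 CPM between its quartiles, with a highest cell at 4883. Although nearly all CBX cells held most members, their levels were only weakly related from cell to cell. Over the 21 pairs of members, Spearman's rank correlation across the 81 cells ran from -0.37 (Gdf10 with Hopx) to 0.31 (Gdf10 with A2m), with a median of -0.02. Within MouseID-614198 and MouseID-651221 the rank correlation was -0.32 and -0.44 for Gdf10 with Hopx, and 0.22 and 0.32 for Gdf10 with A2m. Cells of 1 mouse share library preparation and CPM share a total, the rank correlation of Gdf10 with depth was 0.22, and no p is given.

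The 2 CBX cells without a Gdf10 read differed, 1 inside and 1 outside the CBX cluster. Of the 3 CBX cells outside it, 1 of MouseID-651221 had no read of Gdf10, Ctxn3, A2m or Hopx, while Timp4 was at 2304 CPM, Sept4 at 5364 and Tnc at 255. That cell also held 395 CPM of Lhx2, a transcription factor of the developing forebrain that was read in only 3 of the 81 CBX cells. The other 2 cells, both of MouseID-614198, held Gdf10 at 176 and 17.2 CPM, Ctxn3 at 3482 and 198 CPM and Hopx at 7094 and 2984 CPM. The first of them was the highest CBX cell for both Ctxn3 and Hopx.

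In MB/HB, Gdf10 and the other members occurred together. All 6 MB/HB astrocyte-like cells with Gdf10 also held Ctxn3, A2m, Hopx, Timp4 and Sept4, and 5 of the 6 held Tnc. They were 6 of the 39 astrocyte-like cells of MouseID-615516 (15.4%, exact 95% interval 5.86 to 30.5), against 0 of 109 in the other 3 MB/HB mice, which allows a share of up to 2.75%. Gdf10 was at 2513, 2559, 1441, 2968, 5316 and 2833 CPM in the 6 cells. Over these cells Ctxn3 ranged from 458 to 966 CPM, A2m from 689 to 1448, Hopx from 2564 to 3818, Timp4 from 4089 to 5827, Sept4 from 4210 to 8246 and Tnc from 0 to 479. For each member but Gdf10, all 6 lay within the range of the CBX cells, and for Gdf10 5 did and 1 lay above the highest CBX cell.

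The 33 other astrocyte-like cells of MouseID-615516 had no read of Gdf10, Ctxn3 or Tnc. A2m was read in 2 of them, Hopx in 10, Sept4 in 11 and Timp4 in 31. The highest of these 33 cells held 217 CPM of A2m, 363 of Hopx, 463 of Sept4 and 3521 of Timp4, so that the 6 cells lay above all 33 for each of these 4 genes. The 6 cells were found on both sort plates of the mouse, 2 of its 12 astrocyte-like cells on AB-S40304 and 4 of its 27 on AB-S40305. The first plate also carried 30 CBX cells and the second carried none. The 6 cells had 441452 to 613471 reads each, and the median of the other 33 was 454064.

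Some genes that mark brain regions split the cells of that mouse in the same way. Zic1 and Zic4, transcription factors of the developing cerebellum and dorsal midline, were read in 5 and 4 of the 6 cells, in 0 of the 33 others, and in 66 and 68 of the 81 CBX cells. In the 109 cells of the other MB/HB mice, which held no Gdf10, Zic1 was read in 6 and Zic4 in 5, at up to 369 and 164 CPM. The Hox genes listed, which mark hindbrain and spinal levels, were read in 0 of 6 cells, 13 of 33 cells (39.4%), 50 of the 109 cells of the other MB/HB mice (45.9%) and 3 CBX cells. A count of 0 of 6 allows a share of up to 50%, so for Hox genes the 6 cells were not separated from the other MB/HB cells. Meis2 was read in 2 of 6 and 25 of 33 cells. Slc6a11, the GABA transporter GAT-3, had a mean of 9.28 CPM in the 6 cells and 1400 in the 33, against 11.8 in CBX. Agt, the angiotensinogen gene, had means of 300.2, 3133 and 414 CPM. Gria1 and Gria4, AMPA receptor subunits of Bergmann glia, were at 1120 and 2449 CPM in the 6 cells, 355 and 520 in the 33, and 1134 and 2201 in CBX. The dissection of MB/HB and the plate were not tested as a part of this result.

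Ranked by the difference in mean log2(CPM + 1) between the 6 and the 33 cells, the first 10 panel genes were Gdf10, Sept4, Hopx, A2m, Ctxn3, Vim, Msx2, 0610040J01Rik, Id4 and Cd70. Gdf10 led by construction, 4 other members followed it directly, Tnc ranked 13 and Timp4 ranked 345. Of 17 other genes listed for Bergmann glia, 13 differed by at least 1 on this scale between the CBX cells and the 33 cells, and the mean of the 6 cells was nearer to that of CBX for 13 of these 13. For the regional transcription factors it was nearer to CBX in 9 of 10 (not for Irx2), and for the TGF-beta family in 4 of 7 (not for Acvr1, Bmpr1b and Smad1). Over the panel outside the members the same was counted for 1219 of 1468 genes (83.0%).

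**Figure D3:**
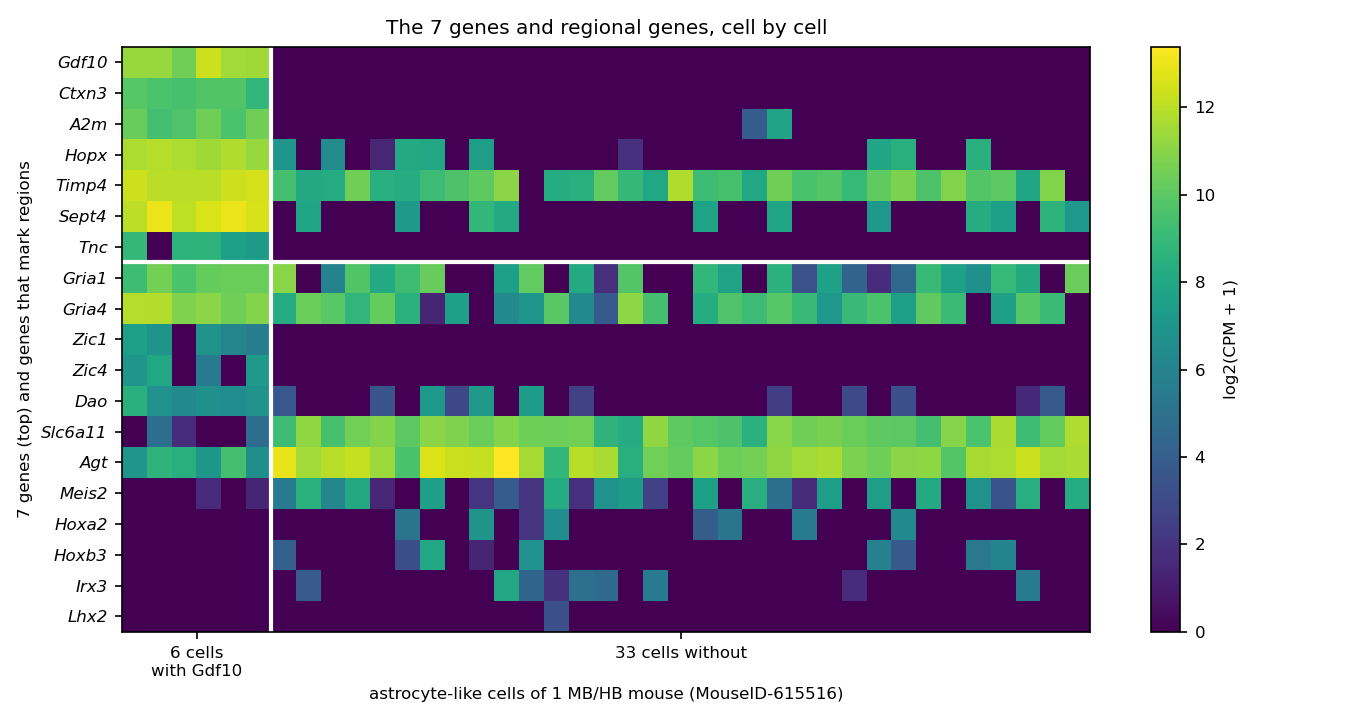
Each column is 1 astrocyte-like cell of MouseID-615516 (MB/HB), 6 with Gdf10 to the left and 33 without to the right; colour gives log2(CPM + 1) of the 7 genes (upper rows) and of genes that mark regions (lower rows). The 6 cells hold the members together with Zic1 or Zic4 in most, little Slc6a11 and no Hoxa2 or Hoxb3 read. The 33 hold Slc6a11 in every cell. Agt is read in every cell of both groups, with means of 300.2 CPM in the 6 and 3133 in the 33.

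Outside the 6 cells, A2m was read in MB/HB where Gdf10, Ctxn3 and Tnc were not. It was found in 13 cells, spread over all 4 mice, at a median of 192 CPM and a range of 13.6 to 689. Of these 13 cells, 5 had a read of Hopx, 11 of Timp4 and 4 of Sept4, and none of Gdf10, Ctxn3 or Tnc. Among the 129 cells with neither A2m nor Gdf10, Hopx was read in 47 (36.4%, against 38.5% with A2m), Timp4 in 121 and Sept4 in 51. The cell with the most A2m, at 689 CPM, had no read of another member. Shares of the other members in cells with and without A2m were not compared by a test. The part in these reads of cells with markers of another class was not tested.

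In VISp, Gdf10 came without Ctxn3, and seldom with A2m or Tnc. None of the 236 cells with Gdf10 had a read of Ctxn3. A2m was read in 12 of them (5.08%) and in 13 of the 503 cells without Gdf10 (2.58%), and Tnc in 9 (3.81%) and 7 (1.39%). Hopx was read in 93.6% and 89.1%, Timp4 in 94.9% and 91.5% and Sept4 in 55.9% and 57.1%. The median Gdf10 level of the 236 cells was 187 CPM and the highest 1622, against medians of 2139 CPM in CBX cells and 2696 in the 6 MB/HB cells with a read. Gfap, an intermediate filament gene of astrocytes, was read in 52.5% of cells with and 32.8% of cells without Gdf10, at median depths of 450583 and 426416 reads. Over the 21 pairs, the rank correlation across the 739 VISp cells ran from -0.09 to 0.13.

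The share of VISp astrocyte-like cells with Gdf10 differed between mice, from 13.2% in MouseID-614199 (eHGT_376h) through a median of 27.9% to 62.2% in MouseID-651226 (GFAP_promoter). The other GFAP_promoter mouse had 44.2%. By cluster it was 40.2% of 423 cells, 23.95% of 263 cells and 3.92% of 51 cells in the 3 clusters that held over 50 VISp cells. Hopx had a read in 94.1%, 84.0% and 94.1% of the cells of the same clusters, with its highest mean, 865 CPM, in the cluster with the least Gdf10. The clusters were made from panel genes of these same cells, so these shares are a description.

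Among VISp mice of 7 vectors with 2 mice each, no gene differed between vectors by the limma F-test over 4240 genes (0 called, 0%; 212 genes at an unadjusted p under 0.05). Hopx had an unadjusted limma p of 0.0028 and Tnc one of 0.0062, and the adjusted p of the 6 members tested ran from 0.92 to 0.98. Ctxn3 was too low to be tested. By vector mean over all 12 vectors, Gdf10 ran from 3.93 (eHGT_373m, 1 mouse) to 7.23 (GFAP_promoter), while 2 mice of 1 vector differed by a median of 0.43. The largest such gap, 1.48, was that of GFAP_promoter itself (6.49 and 7.97). The eHGT_373m mouse had 12 cells, 2 of them with a Gdf10 read. For Sept4 the range was 6.35 to 8.40, with a median gap within a vector of 0.98 and a largest one of 2.28. In simulated data with the change put into 1 of the 7 vectors and equal normal spread in all, only 17.5% of genes changed by 3 on the log2 scale were recovered. A difference of 1 vector from the others was thus not well detectable with 2 mice each.

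Between classes within VISp, the members did not behave alike. In 19 astrocyte-like and 21 oligodendrocyte-like mice, limma over 4500 genes called Gdf10, Hopx and Timp4 higher in astrocyte-like cells and Sept4 in oligodendrocyte-like cells. Of all genes, 39.2% were called higher and 23.8% lower in astrocyte-like cells. A2m, Tnc and Ctxn3 passed the threshold too, but no call is read from them. They entered the test only through the class where they were higher, as no mouse of the other class reached 1 CPM. Sept4 ranged from 4768 through 6062 to 7956 CPM (lowest, median and highest mouse) in oligodendrocyte-like cells, above each of the VISp astrocyte-like mice, and differed by -5.00 (SE 0.16, limma adjusted p 1.2e-30). Its level in CBX astrocyte-like cells, 6510 and 7767 CPM, lay within the range of the oligodendrocyte-like mice. In CBX astrocyte-like cells, 2 of 12 oligodendrocyte markers were detected in most cells and 3 in none, and their summed level had a median of 1908 CPM (428 to 5223), against 305 CPM in VISp and 1031 in MB/HB; its part in the Sept4 level was not tested.

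Timp4 was at 0.179, 9.04 and 29.3 CPM (lowest, median and highest mouse) in oligodendrocyte-like cells and Hopx at 2.87, 23.4 and 73.9 CPM, both below every astrocyte-like VISp mouse. The share of all genes without overlap between the classes was not counted, so nothing is read from such gaps. Timp4 differed by 6.16 (SE 0.27, limma adjusted p 6.9e-25) and Hopx by 4.10 (SE 0.25, limma adjusted p 1.9e-19). Gdf10 was at 0 in 15 of 21 oligodendrocyte-like mice and differed by 5.59 (SE 0.25, limma adjusted p 3.2e-24). A2m and Tnc were at 0 in 19 of 21 oligodendrocyte-like mice, with differences of 1.97 (limma adjusted p 3.6e-07) and 0.85 (limma adjusted p 0.0061). Both passed the filter of 1 CPM only through the astrocyte-like mice, as no oligodendrocyte-like mouse was above 0.057 CPM. Ctxn3, at 0 in 11 of 21 oligodendrocyte-like and 18 of 19 astrocyte-like mice, differed by -0.55 (SE 0.19, limma adjusted p 0.0092), a difference among levels of at most 3.33 CPM. It passed that filter only through the oligodendrocyte-like mice, as no astrocyte-like mouse was above 0.426 CPM. No call is read for A2m, Tnc and Ctxn3. Ctxn3 no longer passed the threshold with the class called in each cell (limma adjusted p 0.069) or with AB plates only (limma adjusted p 0.089). Its adjusted p ran from 0.0039 to 0.089 over the 7 alternatives in which it was tested. Vectors label mostly 1 class, so class and vector cannot be told apart here.

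**Figure D4:**
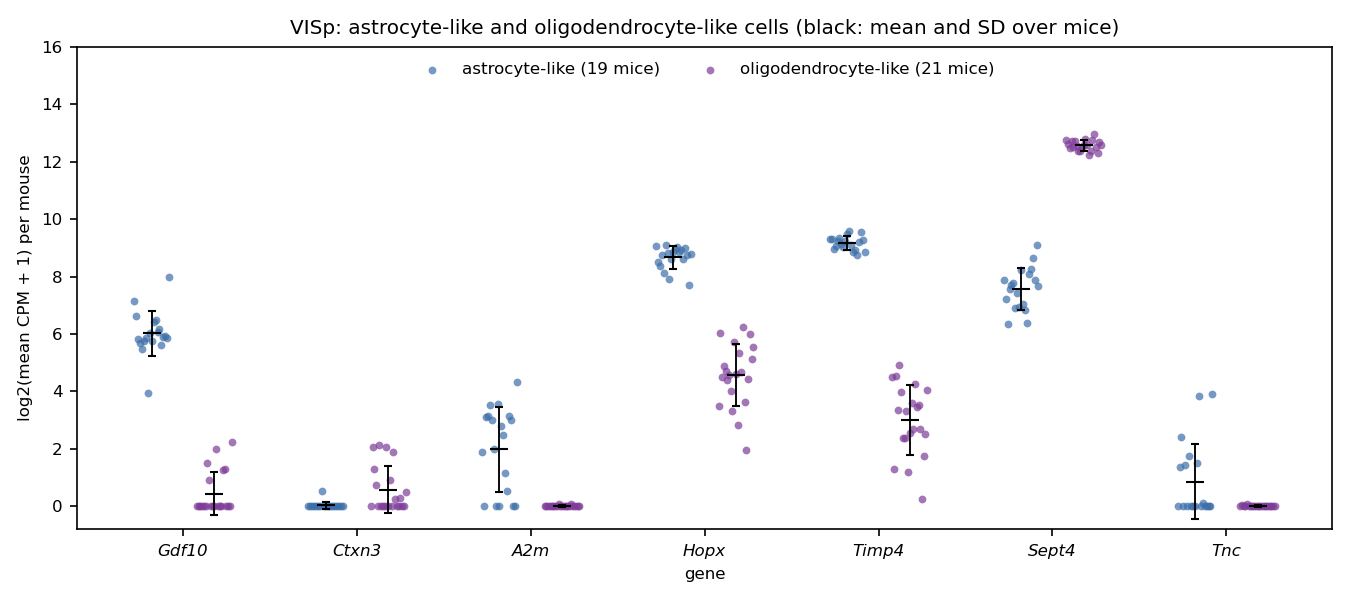
Levels of the 7 genes in VISp on the log2(mean CPM + 1) scale, 1 point per mouse, for 19 astrocyte-like and 21 oligodendrocyte-like mice; black marks are the mean and SD over mice. Sept4 is the gene whose oligodendrocyte-like mice all lie above the astrocyte-like ones, and Hopx, Timp4 and Gdf10 show the opposite without overlap. The share of all genes with such a gap was not counted, so nothing is read from the count of members.

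Genes around the members did not share 1 direction between MB/HB and VISp. Of 17 other Bergmann glia genes, 7 were higher in MB/HB and 1 was lower, with a median difference of 0.49 (all genes -0.05), and 7 and 2 without the 6 cells of MouseID-615516. The higher ones included the AMPA receptor subunits Gria4 (7.04) and Gria1 (3.85) and Dao, a D-amino acid oxidase (4.58), and the lower one was the glutamate transporter Slc1a3 (-2.45). Of 15 paralogues of the members that were tested, 1 was higher (Tnr, the matrix protein tenascin-R, 2.89) and 6 were lower, among them the septins Sept8 (-2.39), Sept11 (-1.85) and Sept5 (-1.66) and the metalloprotease inhibitor Timp2 (-1.46). Sept4, the septin among the members, did not pass the test.

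Of 22 TGF-beta family receptors and effectors, the pathway on which Gdf10 signals, 2 were higher in MB/HB (the receptor Acvr1, 1.32, and the inhibitor of differentiation Id2, 0.72) and 1 was lower (Id4, -2.52), with a median of 0.02. With 5.75% of all genes called higher and 6.64% lower, these few calls say nothing particular to that list. Of 23 matrix proteins and proteases, among which A2m, Timp4 and Tnc act, 5 were higher, such as Sparc (4.09), and 2 were lower, the link protein Hapln1 (-5.35) and the proteoglycan Cspg5 (-2.40). Of 23 regional transcription factors tested, 15 were higher, such as Irx5 (4.73) and Pax3 (4.70), and 6 were lower, such as the forebrain factor Lhx2 (-7.23). In the comparison of VISp classes, 12 of 15 other Bergmann glia genes were higher in astrocyte-like cells and 1 was lower, and of 22 TGF-beta family genes 15 were higher and 2 lower, where 39.2% of all genes were called higher and 23.8% lower. The medians were 3.32 and 1.36 against 0.24 over all genes.

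The genes whose levels most resembled the members over the 25 mice, by Pearson's r to the mean of the standardised members, were Cd70 (0.969), Mybpc1 (0.957), En2 (0.949), Styk1 (0.930) and Rbm24 (0.926). All 5 had their lowest CBX mouse above the highest other mouse, and MouseID-615516 was the highest MB/HB mouse for each. Cd70, for example, was at 7.72 on average in CBX, 5.57 in MouseID-615516 and at most 0.17 in VISp. The high CBX mice and the place of MouseID-615516 are largely set by the ranking itself, so nothing is read from them. The members were picked as high in CBX and, within MB/HB, were highest in MouseID-615516. Over the 81 CBX cells, the genes most like Gdf10 by Spearman's rank correlation among 2543 were Gpr37l1 (0.57), Slc1a3 (0.52), Gja1 (0.48), Selenon (0.45) and Plcb4 (0.42). The rank correlation was 0.42 and 0.65 for Gpr37l1 in the 2 mice, and 0.44 and 0.55 for Slc1a3. These genes code for an orphan receptor of astrocytes and a glutamate transporter. Both likenesses are descriptions over shared libraries and carry no p.

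By the gene models of GENCODE vM21 on GRCm38, A2m spans chr6:121635376-121679227 on the plus strand with up to 36 exons, Sept4 chr11:87568903-87590539 on the plus strand, and Tnc chr4:63959785-64047015 on the minus strand. Gdf10 spans chr14:33923587-33937983 with 3 exons, Hopx chr5:77086988-77115121 and Timp4 chr6:115241892-115252205. Levels of members that overlap another gene are uncertain, because the sources used here do not say whether reads were counted by strand. Hopx shares 27.2% of its exonic bases with the antisense gene Hopxos, Tnc 2.27% with 8030451A03Rik and Timp4 1.53% with Syn2 on the opposite strand. Sept4 shares 1.26% with Gm11492 on its own strand. Ctxn3 overlaps the antisense gene 4930511M06Rik with no exonic base in common, and the mean of that gene was 76.0 CPM in CBX, 3.87 in MB/HB and 1.45 in VISp astrocyte-like cells. Gdf10 and A2m overlap no annotated gene.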

How the data were processed

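RNA was measured in 2040 single sorted cells, each with its vector, MouseID, tissue and plate in the labels. The authors deposited a table of CPM, reads of a gene scaled to the total of its cell, with 1 line per cell, for which STAR and the mm10 build are named in the submitters' processing notes and the version is not given in the sources used here. The labels do not state the normalization, so the unit was tested on the file: each line summed to 1000000, and 100% of 9484843 positive values were whole reads within 0.001 reads. Other deposited columns than those of the gene lists also hold CPM, by the same test. No count model was used on single cells, and reads served for depth, thinning and an alternative. A cell had 57873 to 1455022 reads, with a median of 434101.

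All columns entered sums and depth, and the rest used a panel of 4800 genes (199 from lists, 4601 drawn at random after the table had been opened), which held a median of 34.9% of reads; 27445 columns were not used. No column failed to match a sample, and 0 cells had the same panel values as another cell. The members and lists were chosen with earlier results of these data known. Cells were clustered (leidenalg 0.10.2, scikit-learn 1.9.0, Python 3.11.15) without the 7 members into 10 clusters, named by marker lists. A class called in each cell gave the same name in 2023 of 2040 cells. Doublets were not called by a tool; cells with markers of another class were counted and left out in an alternative.

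The mouse was the replicate, by its MouseID. CPM was averaged over a mouse's cells of a class (10 or more) and tested as log2(mean CPM + 1) with limma 3.58.1 in R 4.3.3 (two-sided, intensity trend), over genes that reached a mean of 1 CPM in 2 or more mice. Fold changes on this scale understate low genes. In simulated data, 27.5%, 72.5% and 97.5% of genes changed by 1, 2 and 3 on the log2 scale were recovered in the MB/HB and VISp comparison. The simulated noise was normal with the same spread in each tissue. Several members had a wider spread in MB/HB than in VISp, or mice at 0, so these rates do not describe them. Shares carry 95% intervals by the exact method of Clopper and Pearson, and for a count of 0 the limit is 3 cells. These cover counting error only. Named genes were the 7 members, up to 6 genes of each list with the largest change, the 5 genes most like the members over mice, the 5 most like Gdf10 over CBX cells, and the 10 that differed most between MB/HB cells with and without Gdf10. Promoters were found for 5 of 7 members.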

Additional observations from a re-analysis of the deposited data

Results flagged for a closer look

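Among the 4 MB/HB mice, MouseID-615516 stood apart for 4 of the 7 genes, in that the gap between its level and the next mouse exceeded Dixon's critical share of the range at 95%. On the log2(mean CPM + 1) scale Gdf10 was at 8.82 in that mouse and 0 in the others, Ctxn3 at 6.90 and 0, and Tnc at 5.43 and 0. Hopx was at 9.11, with the next mouse at 6.23. A2m, Sept4 and Timp4 did not pass that limit. For Gdf10, Ctxn3 and Tnc the other 3 mice were tied at 0, so any level above 0 in 1 mouse would pass the limit. The rate of about 1 in 20 groups marked by chance therefore does not apply to these 3 genes. The 4 genes also share the same cells and mice.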

How the results depend on the processing

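The calls of Gdf10, A2m, Hopx and Timp4 between MB/HB and VISp kept direction and threshold in every alternative run (for Gdf10, MB/HB was at 0 without MouseID-615516 or its 6 cells, and those 2 are no test of it), with adjusted p of at most 0.030, 0.040, 0.0032 and 7.3e-05, and so did the members other than Ctxn3 between VISp classes. Ctxn3 was too low to be tested there at a minimum of 5 CPM. No class call is read for A2m, Tnc and Ctxn3, which passed the filter on low values through 1 class only. Reversals were confined to members that did not pass the test: with 1 mouse left out Ctxn3 ran from -0.027 to 2.27, Sept4 from -0.43 to 0.65 and Tnc from -0.86 to 0.95, each lowest without MouseID-615516, and without its 6 cells, an alternative chosen after seeing the data, they were at -0.027, -0.62 and -0.86. Ctxn3 was at 2.27 when any 1 of the other 3 MB/HB mice was left out (limma adjusted p 0.034 to 0.038). Since Ctxn3 passed the filter on low values only through the CBX mice, no call is read from this. Genes called between MB/HB and VISp numbered 452 to 555 with 1 mouse left out, against 554. Between vectors 0 genes were called with any 1 mouse left out, and 2 with no filter on low values. The 7 members kept their CBX levels above all other mice with any 1 mouse left out (7 of 7). Averaging log2 values over cells moved 14 of 21 levels beyond their spread, and thinning or a 10 CPM minimum moved 5 of 42 shares. Leaving out cells with markers of another class left 24 mice. At 50000 reads per thinned cell a level of 1 read cannot be told from none. No paired analysis was possible because replicate numbers are MouseIDs, which no 2 groups share; the sort plates that some groups share were not run as a block.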
